A study of Rattus norvegicus with 17 samples.

Results

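Rat primary cortical cultures that carried an empty vector and were given FK506 at 2.0 µM were compared with the same kind of culture given the solvent DMSO. The comparison uses 6 of the 17 libraries of the study, 3 with 2.0 µM FK506 and 3 with DMSO, and covers 11247 genes. The labels describe the cells as glutamatergic neurons and astrocytes taken from the cerebral cortex. Both groups carry the empty vector and differ by the drug, and the series calls 2.0 µM a saturating dose. Where they bear on a result, 3 libraries of empty-vector cultures at 0.2 µM FK506, a dose below saturation, are set beside them. Cultures that carry the A53T variant of α-synuclein are used in the same way, with 2 libraries in DMSO and 3 at 2.0 µM. The promoter of the vector, the length of the treatment, the age of the animals and the number of separate cultures are not given in the sources used here. P-values therefore measure the spread between these libraries, which may be technical.

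FK506 (tacrolimus) binds small proteins of the FKBP family, above all FKBP12, which the gene Fkbp1a encodes. The complex of drug and FKBP12 binds calcineurin, a phosphatase that calcium and calmodulin switch on, and blocks it. Calcineurin is abundant in brain, where it dephosphorylates transcription factors of the NFAT family, ion channels and synaptic proteins. FKBP12 also holds type I receptors of the BMP and TGF-β families in their inactive state and is a partner of ryanodine receptors, the calcium release channels of the endoplasmic reticulum, and FK506 displaces it from both. In cultured cortex, calcium entry through channels and glutamate receptors drives activity-dependent genes, many of which are read as a measure of neuronal firing.

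Values are the normalized counts that the authors deposited, and their totals over all genes lay between 15848673 and 17085646 in the 6 libraries. The number of reads behind them is not given in the sources used here. Replicate 2 at 2.0 µM stood apart from its group, being the library farthest from the group median in 63.3% of genes. It differed from the other 2 libraries of its group by 5.65 and 7.20 times the sampling noise expected of counts of this size, whereas those 2 differed from each other by 1.48 times. Pairs of DMSO libraries differed by 2.30 to 3.16 times. Replicate 1 at 0.2 µM and replicate 1 of the A53T cultures at 2.0 µM stood apart from their groups in the same way. Where leaving out 1 library, or these 3 together, changes the call of a gene named for 2.0 µM against DMSO or moves a count of list members in that comparison by over 1.5 times, the value without them is given with the result or in the closing section.

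At 2.0 µM the 3 libraries differed from DMSO in many genes, among them p53 targets, chaperones of the endoplasmic reticulum, neuropeptides, potassium channels and astrocyte markers. Of the 11247 genes, 5307 (47.2%) passed an adjusted p of 0.05 with limma on log2(value + 1), 2635 (23.4%) of them higher and 2672 (23.8%) lower at 2.0 µM. All adjusted p-values that follow come from this fit, by the Benjamini-Hochberg procedure across every gene tested, and errors on fold changes are standard errors. Fold changes on this scale understate the change of genes with low values. Of the genes that passed, 427 (3.80%) were higher by at least 1 on the log2 scale and 461 (4.10%) were lower by as much. The median change of all genes was 0.00080, and 90% of genes lay between -0.95 and 0.91. In 6802 genes (60.5%) the 3 values at 2.0 µM did not overlap the 3 DMSO values, with 30.2% of genes wholly above and 30.3% wholly below. Without replicate 2 at 2.0 µM, 4928 genes passed, 2397 higher and 2531 lower, and without all 3 libraries that stood apart 6885 passed.

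**Figure D1:**
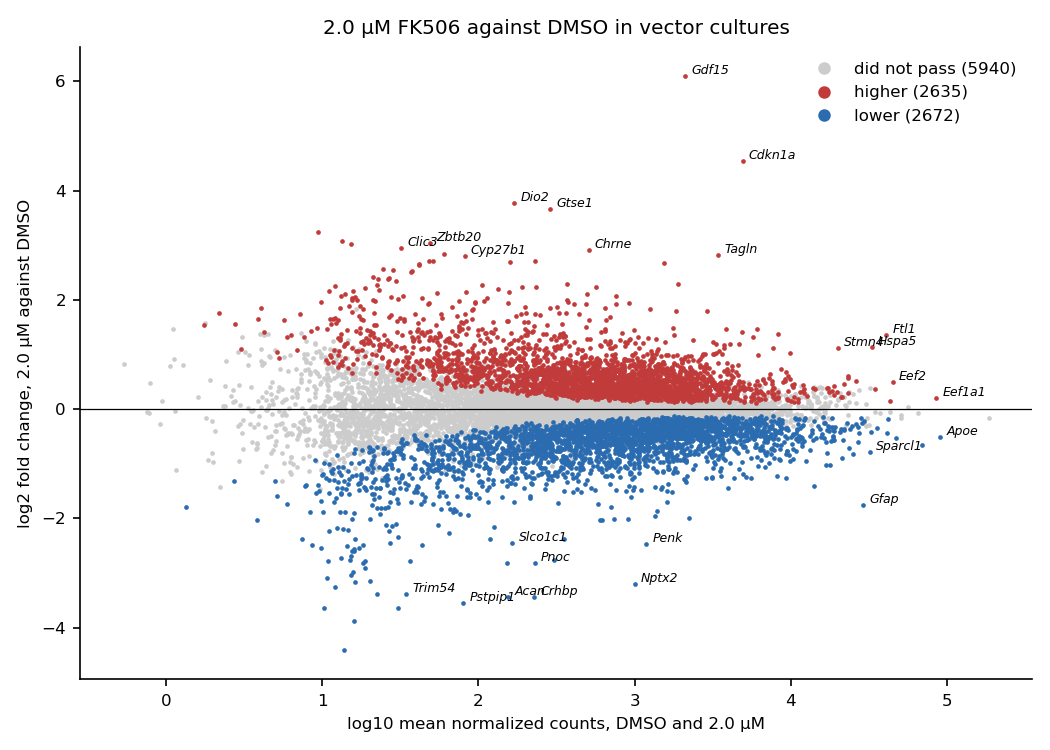
Each point is 1 of 11247 genes, with the mean normalized count over the 6 libraries on a log10 axis (x) and the log2 fold change of 2.0 µM FK506 against DMSO in empty-vector cultures (y). Red and blue points passed an adjusted p of 0.05 as higher (2635) or lower (2672), grey points did not, and some of the genes with the largest changes are named.

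Both arms of the largest changes included secreted proteins and enzymes. Genes were ranked by log2 fold change among those that passed without overlap, carry a RefSeq symbol and have a mean of at least 50 normalized counts in the higher group, so that genes of lower counts with larger ratios are not in these ranks. Gdf15, a stress-induced hormone of the TGF-β superfamily, had 47.6, 57.1 and 75.6 normalized counts in the 3 DMSO libraries and 3927, 4761 and 3743 at 2.0 µM. Dio2, which activates thyroid hormone, was at 22.2, 21.4 and 23.4 in DMSO and 283, 334 and 336 at 2.0 µM. Gtse1, a protein of G2 and S phase that restrains p53, went from 44.3, 31.6 and 48.9 to 535, 600 and 456 (log2 fold change 3.65 ± 0.17, adjusted p = 2.7e-08). In each of these genes every value at 2.0 µM lay above every DMSO value. Tagln, an actin-binding protein of smooth muscle and fibroblasts, was at 827, 770 and 958 in DMSO, 2331, 1607 and 2262 at 0.2 µM and 5817, 6809 and 5411 at 2.0 µM (2.82 ± 0.17 at 2.0 µM, adjusted p = 1.2e-07). Chrne, a subunit of the muscle acetylcholine receptor, went from 108, 117 and 129 to 869, 985 and 833 (2.91 ± 0.13, adjusted p = 1.8e-08). Zbtb20 (3.04 ± 0.26), Clic3 (2.94 ± 0.34), Cks2 (2.83 ± 0.38), Cyp27b1 (2.80 ± 0.20), Tgfbr2 (2.72 ± 0.37) and Masp2 (2.71 ± 0.25) complete the 12 largest rises of this ranking with Cdkn1a. Cyp27b1 makes the active form of vitamin D, and Cks2 is a partner of cyclin-dependent kinases.

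The 12 largest falls under the same ranking held several genes of inhibitory neurons and their surroundings. Acan, the aggrecan core protein of perineuronal nets, had 313, 293 and 248 normalized counts in DMSO and 29.2, 23.9 and 23.3 at 2.0 µM (-3.43 ± 0.21, adjusted p = 1.3e-07). Pnoc, the precursor of the opioid-like peptide nociceptin, went from 379, 358 and 468 to 49.7, 65.5 and 52.6 (-2.82 ± 0.20, adjusted p = 4.4e-07). Penk, the enkephalin precursor, went from 1857, 2054 and 2125 to 384, 416 and 301 (-2.46 ± 0.17, adjusted p = 3.0e-07). All 3 had DMSO values wholly above those at 2.0 µM. Slco1c1, a carrier of thyroid hormone, fell by a similar amount (-2.45 ± 0.15). Others among them were Pla2g5 (-3.64 ± 0.41), a secreted phospholipase, Pstpip1 (-3.55 ± 0.28), Crhbp, Trim54 (-3.38 ± 0.41), Nptx2, Fam150b (-2.81 ± 0.21) and Vwc2 (-2.76 ± 0.22).

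Ranked by normalized counts instead of ratio, the gains were led by ferritin light chain and the losses by astrocyte and glycolytic genes. Ftl1, ferritin light chain, had 21670, 21981 and 24979 in DMSO, 22676, 17353 and 18849 at 0.2 µM and 55022, 74163 and 48704 at 2.0 µM (1.35 ± 0.16, adjusted p = 2.3e-05). Replicate 2 was the highest of the 2.0 µM libraries for Ftl1, and the other 2 also lay above every DMSO library. Fth1, the heavy chain, had 181094, 199782 and 204400 in DMSO and 164328, 210230 and 154106 at 2.0 µM and did not pass (adjusted p = 0.47), and it overlapped between the groups. It was lower without the 3 libraries that stood apart (-0.29, adjusted p = 0.0030). Stmn4, a microtubule-destabilizing protein of neurons, went from 11664, 12298 and 14015 to 25930, 30329 and 25832 (1.11 ± 0.13), and the elongation factor Eef2 from 37384, 36216 and 38483 to 52165, 53406 and 51948 (0.49 ± 0.05). Eef1a1, another elongation factor, was at 77272, 79346 and 80782 in DMSO and 90323, 95536 and 88095 at 2.0 µM (adjusted p = 0.032), a call that was lost on leaving out any of the 6 libraries but replicate 3 at 2.0 µM, with log2 changes of 0.17 to 0.22. Gfap, Apoe, Gapdh, Sparcl1 and Aldoa lost the most counts, with Apoe no longer past the threshold without DMSO replicate 3 or without replicate 1 or 3 at 2.0 µM (-0.45 to -0.41). Sparcl1, a secreted astrocyte glycoprotein that promotes synapse formation, fell from 41239, 38146 and 42423 to 23845, 22556 and 24012 (-0.79 ± 0.07, adjusted p = 1.3e-06).

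**Figure D2:**
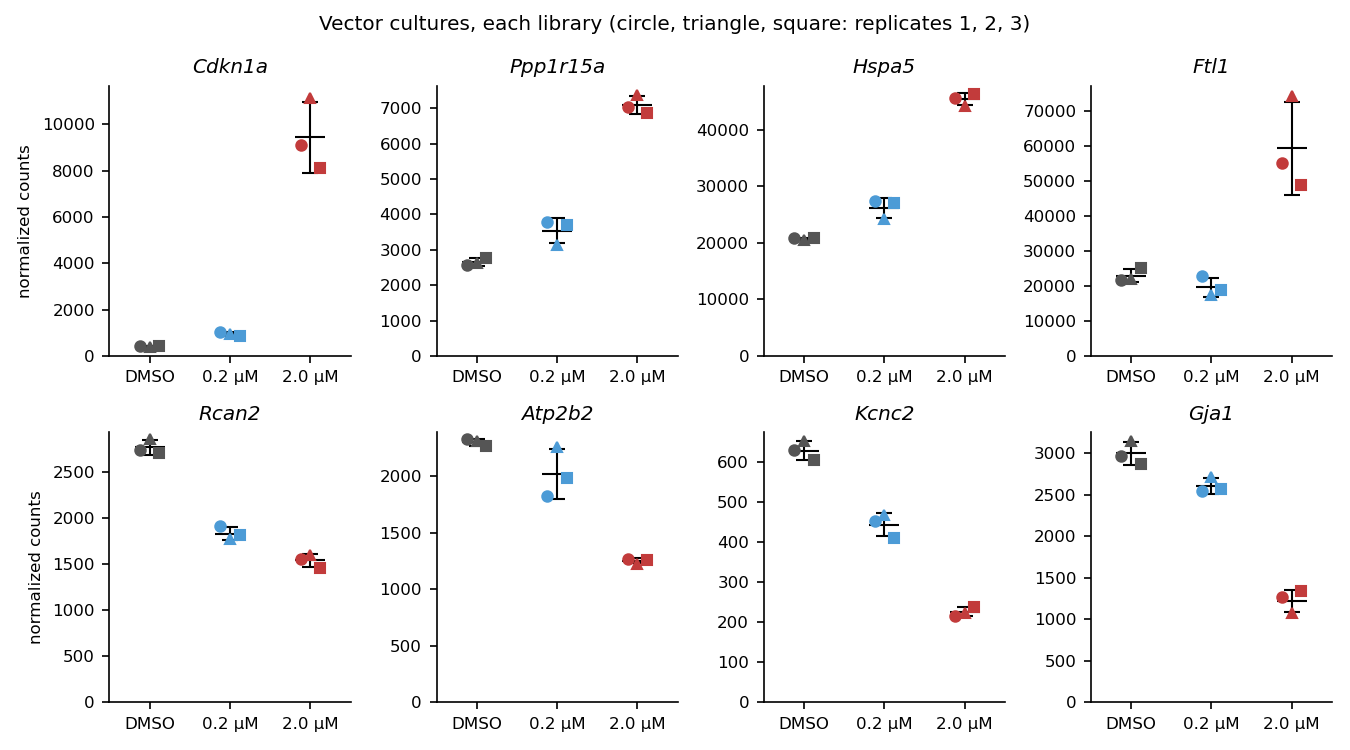
Normalized counts (y, linear from 0) of 8 genes in the 9 empty-vector libraries, grouped on the x axis as DMSO, 0.2 µM and 2.0 µM FK506, with circle, triangle and square for replicates 1, 2 and 3 and the bar for the mean ± SD. Cdkn1a, Ppp1r15a, Hspa5 and Ftl1 lie higher at 2.0 µM than in any DMSO library, and Rcan2, Atp2b2, Kcnc2 and Gja1 lie lower.

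Most genes of calcineurin and its regulators were lower. None of the 13 measured members of the list of subunits and regulators was higher and 9 were lower, with a median of -0.38. Of all genes, 23.4% were higher and 23.8% lower. Ppp3ca, the main catalytic subunit in brain, and Ppp3r1 (-0.39 ± 0.07), the regulatory subunit, fell. Ppp3r1 had 8153, 8231 and 8070 normalized counts in DMSO and 6424, 5790 and 6413 at 2.0 µM (adjusted p = 5.3e-04), without overlap. The other catalytic subunit of neurons, Ppp3cb, had 2905, 2543 and 2482 in DMSO and 2084, 1640 and 2215 at 2.0 µM and did not pass (adjusted p = 0.12), but was lower without the 3 libraries that stood apart (-0.30, adjusted p = 4.6e-04). Calm2 (-0.38 ± 0.06), which encodes calmodulin, was lower. Rcan2, an endogenous calcineurin inhibitor, was at 2740, 2862 and 2709 in DMSO, 1913, 1771 and 1817 at 0.2 µM and 1559, 1602 and 1464 at 2.0 µM. Rcan1, the inhibitor best known as a transcriptional target of calcineurin and NFAT, had 1767, 1971 and 1880 in DMSO, 1654, 1566 and 1568 at 0.2 µM and 1755, 1606 and 1706 at 2.0 µM. It passed at 0.2 µM (-0.23 ± 0.06, adjusted p = 0.028) and not at 2.0 µM (-0.15 ± 0.06, adjusted p = 0.075), where every value still lay below every DMSO value. Compared directly, the doses did not differ past the threshold (0.08 ± 0.06, adjusted p = 0.35). Akap5, the anchoring protein that holds calcineurin at the postsynaptic membrane, was at 147, 105 and 140 in DMSO and 83.8, 53.2 and 71.9 at 2.0 µM (adjusted p = 0.03). Some calls of this list rest on single libraries, and 6 members passed without DMSO replicate 1 or without replicate 2 at 2.0 µM. The call of Akap5 was lost without DMSO replicate 1 or 3 or replicate 2 or 3 at 2.0 µM (-0.94 to -0.73). That of Ppp3cc (-0.18 ± 0.06) was lost without any of the 6 but replicate 3 at 2.0 µM or without the 3 that stood apart (-0.19 to -0.14), that of Chp1 (-0.24 ± 0.07) without replicate 2 of either group (-0.22 and -0.21) and that of Cabin1 (-0.18 ± 0.05) without DMSO replicate 1 (-0.16). At 0.2 µM, 3 members were lower and none was higher, where 10.6% of all genes were lower and 7.70% higher.

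Of the 4 NFAT genes measured, Nfatc3 was higher and Nfatc2 lower, while Nfatc1 and Nfat5 did not pass. Nfatc1 values were 97.1, 89.7 and 80.1 in DMSO and 107, 81.2 and 92.1 at 2.0 µM (adjusted p = 0.8), and Nfat5 values 558, 584 and 516 in DMSO and 507, 547 and 572 at 2.0 µM (adjusted p = 0.84). Among 14 genes of FK506-binding immunophilins, 3 were higher and 4 lower, near the shares of all genes (23.4% and 23.8%). Without the 3 libraries that stood apart 4 were higher and 7 lower, where 3471 of all 11247 genes were higher and 3414 lower. Fkbp1a, which encodes FKBP12, had 13328, 14797 and 14264 normalized counts in DMSO and 12362, 13721 and 11696 at 2.0 µM and did not pass (adjusted p = 0.15). It was lower without the 3 libraries that stood apart (-0.23, adjusted p = 3.6e-04). Fkbp1b (-0.44 ± 0.11), which encodes the close relative that binds ryanodine receptors, Fkbp3 (-0.47 ± 0.08) and Fkbp8 (-0.39 ± 0.11) were lower. Fkbp2 was also lower (-0.61 ± 0.20), a call that was lost without replicate 2 or 3 of DMSO or 1 or 3 at 2.0 µM (-0.59 to -0.53). The 3 that rose were Fkbp7 (0.64 ± 0.13), Fkbp9 (0.28 ± 0.07) and Fkbp10 (0.70 ± 0.08). Fkbp5 and Fkbp4, the co-chaperones of steroid receptors, had log2 changes of 0.02 and -0.12 and did not pass, but Fkbp4 was lower without the 3 libraries that stood apart (-0.17, adjusted p = 0.0092).

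Calcium pumps and release channels were lower at 2.0 µM, 9 of 14 measured members, with none higher and a median of -0.42. Of all genes, 23.8% were lower and 23.4% higher at that dose. Atp2b2, a plasma membrane calcium pump of neurons, had 2323, 2305 and 2261 normalized counts in DMSO, 1820, 2255 and 1979 at 0.2 µM and 1268, 1226 and 1256 at 2.0 µM (-0.88 ± 0.08, adjusted p = 3.3e-06). Every library at 2.0 µM lay below every DMSO library. Ryr2, the ryanodine receptor of heart and brain, went from 927, 967 and 855 to 632, 531 and 687 (-0.58 ± 0.12, adjusted p = 0.0019). Itpr1 (-0.65 ± 0.13), the inositol trisphosphate receptor of neurons, Atp2a2 (-0.51 ± 0.09), the pump that fills the endoplasmic reticulum, and Atp2b3 (-0.92 ± 0.10) also fell. Stim1 (-0.32 ± 0.06), the store calcium sensor, and Orai2 (-0.46 ± 0.09), a channel it opens, were lower too. At 0.2 µM, where 18.3% of all genes passed against the same DMSO libraries (7.70% higher and 10.6% lower), no member of this list passed in either direction. Comparing the doses directly, 1 member was higher and 10 were lower at 2.0 µM than at 0.2 µM, against 18.0% and 15.7% of all genes.

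Of 25 ligands, receptors and extracellular inhibitors of BMP and TGF-β signalling, 4 were higher and 5 lower, shares below those of all genes (23.4% and 23.8%). When only genes with a mean of at least 50 were tested, 6 passed. Tgfbr2, the type II receptor for TGF-β, was at 17.8, 7.16 and 15.3 in DMSO, 6.93, 13.4 and 19.8 at 0.2 µM and 87.9, 77.4 and 101 at 2.0 µM (adjusted p = 6.6e-05 against DMSO). Acvr2b (1.54 ± 0.21), a type II receptor for activins, also rose. The type I receptors Acvr1, Bmpr1a and Tgfbr1, of the kind FKBP12 binds, did not pass, but Bmpr1a was higher without the 3 libraries that stood apart (0.35, adjusted p = 0.025). Acvr1 had 243, 170 and 181 in DMSO and 206, 105 and 176 at 2.0 µM, and Tgfbr1 had 87.2, 95.8 and 84.8 in DMSO and 83.8, 84.6 and 96.1 at 2.0 µM, with overlap in both. Nog (-1.13 ± 0.15), the secreted BMP antagonist noggin, and Inhbb (-1.07 ± 0.16), an activin subunit, were lower. Of 14 target genes, 2 were higher and 6 lower. Id1, the most used reporter of BMP signalling, had 281, 326 and 279 in DMSO, 375, 237 and 380 at 0.2 µM and 302, 395 and 278 at 2.0 µM and did not pass (adjusted p = 0.62). Id3, from the same family of inhibitory transcription factors, went from 286, 287 and 277 to 116, 138 and 105 (-1.25 ± 0.27, adjusted p = 0.0022), and Id2 fell more (-1.79 ± 0.09).

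Genes for chaperones and folding enzymes of the endoplasmic reticulum rose. In the list of ER chaperones and ER-associated degradation, 18 of 27 measured members were higher and none was lower, with a median of 0.47. Of all genes, 23.4% were higher and 23.8% lower. Hspa5, the chaperone BiP that senses unfolded protein, had 20828, 20554 and 20812 normalized counts in DMSO, 27374, 24206 and 27104 at 0.2 µM and 45666, 44234 and 46281 at 2.0 µM. Dnajc3 (1.17 ± 0.10), an inhibitor of the kinase PERK, and Eif2ak3 (1.29 ± 0.13), PERK itself, rose by about as much. Dnajc3 went from 358, 353 and 393 to 858, 856 and 772 (adjusted p = 1.7e-06), and P4hb, a disulfide isomerase, from 6425, 6704 and 6477 to 13103, 14631 and 12305 (1.03 ± 0.07, adjusted p = 3.4e-07). Groups did not overlap in any of these genes. Dnajb9 (0.83 ± 0.14), Herpud1 (0.67 ± 0.06) and Manf (0.65 ± 0.07) rose less. Xbp1, the transcription factor that IRE1 activates by splicing, had 3431, 3417 and 3300 in DMSO and 3328, 3447 and 3304 at 2.0 µM and did not pass (adjusted p = 0.89). These values are per gene and do not separate its spliced from its unspliced messenger RNA. Edem1, a target of the spliced form, did not pass either (adjusted p = 0.84).

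Promoter sequence was read for these lists from RefSeq on the rat build GRCr8, as 250 bases before and 50 after each annotated start. The ER stress element, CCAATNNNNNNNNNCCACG, lay on either strand in 8 of the 20 promoters found for the ER list (40%). This element lay in 21 of 27457 promoters in all (0.0765%) and in 16 of 8581 promoters of the genes tested (0.186%). It was in 6 of 13 promoters of ER genes that rose and in 2 of 7 of those that did not pass. The C/EBP-ATF element, TGATGNAAN, was in 4 of 24 promoters of the list of ATF4 targets (16.7%), 3.80% of all promoters and 1.95% of those of genes tested. The cyclic AMP element, TGACGTCA, was in 1 of those 24 (4.17%), 1.91% of all promoters and 3.36% of those of genes tested. A match is a description of letters and not evidence of binding. The 250 bases before the start of 5 genes are printed here with the letters of these elements in capitals, because they put side by side promoters of stress genes that rose and 1, Xbp1, that did not pass. The regions are chr3:38452766-38453015 (plus strand), chr15:102432417-102432666 (plus), chr14:84604373-84604622 (plus), chr1:105139597-105139846 (minus) and chr3:161275534-161275783 (minus).
Hspa5: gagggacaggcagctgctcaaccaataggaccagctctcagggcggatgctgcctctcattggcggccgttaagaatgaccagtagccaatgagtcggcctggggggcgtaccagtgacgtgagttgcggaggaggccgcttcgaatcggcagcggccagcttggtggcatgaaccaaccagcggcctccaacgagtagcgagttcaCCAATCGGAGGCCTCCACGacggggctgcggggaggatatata
Dnajc3: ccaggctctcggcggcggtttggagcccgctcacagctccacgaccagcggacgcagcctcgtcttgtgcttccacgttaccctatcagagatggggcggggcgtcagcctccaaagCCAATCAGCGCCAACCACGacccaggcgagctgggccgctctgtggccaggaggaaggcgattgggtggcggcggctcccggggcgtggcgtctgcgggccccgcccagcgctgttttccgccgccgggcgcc
Xbp1: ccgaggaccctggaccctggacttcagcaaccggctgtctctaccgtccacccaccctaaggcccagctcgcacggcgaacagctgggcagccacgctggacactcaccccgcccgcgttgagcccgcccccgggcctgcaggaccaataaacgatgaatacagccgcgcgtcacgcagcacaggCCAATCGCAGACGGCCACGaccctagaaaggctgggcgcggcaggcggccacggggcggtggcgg
Ppp1r15a: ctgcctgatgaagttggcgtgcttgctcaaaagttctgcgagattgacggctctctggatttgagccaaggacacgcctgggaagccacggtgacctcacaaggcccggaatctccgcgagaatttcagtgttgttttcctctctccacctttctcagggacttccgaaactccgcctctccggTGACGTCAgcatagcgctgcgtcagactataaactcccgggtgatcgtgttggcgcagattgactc
Trib3: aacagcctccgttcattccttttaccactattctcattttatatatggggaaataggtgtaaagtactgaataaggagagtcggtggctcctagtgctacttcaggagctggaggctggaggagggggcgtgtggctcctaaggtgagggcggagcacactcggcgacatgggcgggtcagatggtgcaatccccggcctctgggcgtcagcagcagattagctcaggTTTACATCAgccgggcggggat
Counting the base before the start as -1, the element of Hspa5 begins at -43, that of Dnajc3 at -133 and that of Xbp1 at -65. In Ppp1r15a the capitals are the cyclic AMP element, which begins at -66, and in Trib3 the C/EBP-ATF element on the opposite strand, which begins at -22. Hspa5 and Dnajc3 rose and Xbp1 did not pass, so promoters with the same element came with different values.

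The amino acid response directed by ATF4 split into members that rose and members that fell. Of 28 measured members, 13 were higher and 7 lower, against 23.4% and 23.8% of all genes, with a median of 0.20. Ppp1r15a, also known as GADD34, which restores translation during stress, went from 2561, 2642 and 2767 in DMSO through 3793, 3147 and 3691 at 0.2 µM to 7032, 7392 and 6879 at 2.0 µM (1.42 ± 0.08, adjusted p = 9.3e-08). Ddit3, the transcription factor CHOP, went from 4427, 4833 and 5349 to 9677, 12102 and 9877 (1.11 ± 0.17, adjusted p = 1.7e-04). Sesn2 (0.97 ± 0.17), a leucine sensor that restrains mTORC1, Trib3 (0.75 ± 0.11), a pseudokinase, and Atf4 itself (0.42 ± 0.10) rose by less. Members of the serine synthesis pathway were lower: Phgdh fell from 2098, 2128 and 2370 to 1181, 1368 and 1125 (-0.85 ± 0.10, adjusted p = 2.9e-05), with Psph at -0.46 ± 0.10 and Psat1 at -0.45 ± 0.06. Slc7a11, the cystine and glutamate exchanger, went from 218, 229 and 217 to 75.1, 92.6 and 81.0 (-1.41 ± 0.12). Asns, asparagine synthetase, one of the best known ATF4 targets, had 3373, 3421 and 3424 in DMSO and 3606, 3629 and 3755 at 2.0 µM and did not pass (adjusted p = 0.08). It was higher without the 3 libraries that stood apart (0.11, adjusted p = 0.031). Among 25 aminoacyl-tRNA synthetases, 12 were higher and 3 lower, led by Rars (0.57 ± 0.08) and Tars (0.55 ± 0.06).

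**Figure D3:**
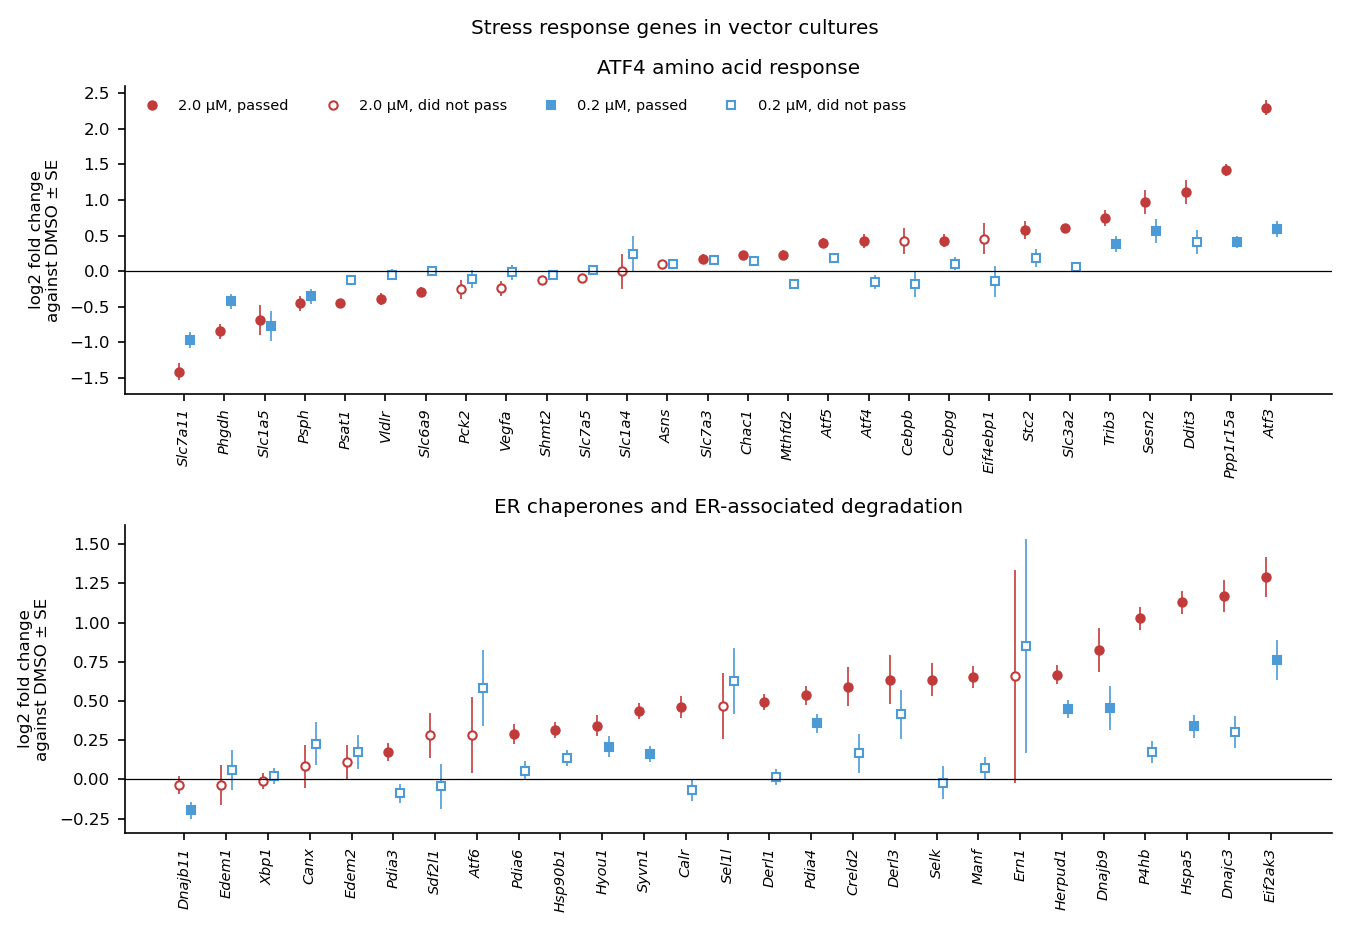
Log2 fold change ± SE (y) of each measured member (x) of the ATF4 list and of the ER chaperone list, with circles for 2.0 µM and squares for 0.2 µM FK506 against the same DMSO libraries and filled symbols for an adjusted p under the threshold. ER members lie at or above 0 at 2.0 µM except for 3 close to it, while ATF4 members spread from -1.41 for Slc7a11 to 2.30 for Atf3.

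Targets of p53 rose in 18 of 28 measured members and fell in 3, with a median of 0.71. Cdkn1a, the p21 inhibitor of cyclin-dependent kinases, had 420, 374 and 416 normalized counts in DMSO, 1045, 938 and 871 at 0.2 µM and 9105, 11118 and 8096 at 2.0 µM. Mdm2, which p53 induces and which degrades p53, went from 835, 914 and 814 to 1709, 1891 and 1545 (adjusted p = 1.4e-06), and at 0.2 µM it was at 860, 775 and 889. Bbc3, the death protein PUMA, went from 519, 495 and 628 to 1210, 1428 and 1282 (1.26 ± 0.11, adjusted p = 1.9e-06). Tp53inp1 (2.40 ± 0.30), Phlda3 (1.29 ± 0.14) and Gadd45a (1.21 ± 0.11) also rose. Not every death gene of the list did so. Bax had 1177, 1231 and 1346 in DMSO and 1124, 1373 and 1006 at 2.0 µM and did not pass (adjusted p = 0.58), but was lower without the 3 libraries that stood apart (-0.23, adjusted p = 0.0077). Pmaip1, which encodes NOXA, had 29.8, 26.5 and 27.9 in DMSO and 39.0, 13.7 and 34.4 at 2.0 µM (adjusted p = 0.91). Plk2 (-1.22 ± 0.08), a kinase that neuronal activity induces as well as p53, and Gadd45b (-0.76 ± 0.17), another activity gene, fell. In the BCL2 and caspase list, 6 of 22 members were higher and 6 lower, near the shares of all genes (23.4% and 23.8%). Without DMSO replicate 2, 8 in all passed. Hrk (1.06 ± 0.05), a death protein of neurons, rose, as did the survival genes Birc2 (1.23 ± 0.09) and Mcl1 (0.50 ± 0.11), while Bnip3l (-0.58 ± 0.08) and Bcl2l1 (-0.30 ± 0.06) fell.

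Cell-cycle genes were higher in 12 of 23 measured members and lower in 1, against 23.4% and 23.8% of all genes. Mcm5 (1.75 ± 0.34), Mcm7 (0.86 ± 0.09) and Mcm6 (0.79 ± 0.10) encode subunits of the replicative helicase. Mcm5 had 11.2, 19.4 and 23.3 normalized counts in DMSO and 72.3, 55.0 and 54.6 at 2.0 µM (adjusted p = 9.3e-04), and Pcna, the sliding clamp, 1441, 1451 and 1385 in DMSO and 2066, 2217 and 2020 at 2.0 µM (0.56 ± 0.06). Cdk1, the kinase that drives mitosis, did not pass (adjusted p = 0.67). Rrm2, a ribonucleotide reductase subunit, was the member that was lower (-1.06 ± 0.36), a call that was lost without DMSO replicate 3 or without replicate 1 at 2.0 µM (-0.84 and -0.85).

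Heat shock protein genes rose in part, 9 of 20 members, and 1 fell, against 23.4% and 23.8% of all genes. Hspa1a (2.10 ± 0.18) and Hspa1b (1.79 ± 0.07), which encode the inducible chaperone HSP70 and can share reads because they are near-identical copies, rose with their partner Bag3 (1.51 ± 0.10). Hspa1b had 1281, 1282 and 1361 normalized counts in DMSO and 4410, 4488 and 4666 at 2.0 µM (adjusted p = 1.7e-08), and Bag3 255, 226 and 286 in DMSO and 725, 728 and 730 at 2.0 µM (adjusted p = 2.4e-07). Neither gene overlapped between the groups. Hspa8, the constitutive chaperone, was at 21498, 21152 and 22172 in DMSO and 22685, 23553 and 22114 at 2.0 µM and did not pass (adjusted p = 0.38), nor did Hspb1 (adjusted p = 0.97) or Dnajb1 (adjusted p = 0.92). The letters GAANNTTCNNGAA of the heat shock element lay on either strand in 6 of 16 promoters found for this list (37.5%). They lay in 0.736% of all promoters and in 0.513% of promoters of the genes tested. Among members with a promoter, 3 of 6 that rose had the element. So did the 1 that fell, Dnaja1, and 2 of 9 that did not pass, Hspa8 and Hspd1.

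In the list of Nrf2 targets, 8 of 24 members were higher and 4 lower, against 23.4% and 23.8% of all genes. Without the 3 libraries that stood apart 9 were higher and 10 lower, where 3471 of all 11247 genes were higher and 3414 lower. Nfe2l2, which encodes Nrf2, went from 429, 374 and 458 to 982, 958 and 986 (1.22 ± 0.10, adjusted p = 7.8e-07), and Srxn1, sulfiredoxin, from 1454, 1453 and 1420 to 2827, 3078 and 2479 (0.95 ± 0.09, adjusted p = 4.5e-06). Nqo1, the quinone reductase often used to read Nrf2 activity, was at 688, 721 and 790 in DMSO and 844, 1011 and 799 at 2.0 µM and did not pass (adjusted p = 0.081). Gstm1 (-0.52 ± 0.10), a glutathione transferase, and Me1 (-0.48 ± 0.06), malic enzyme, fell.

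Early response genes divided. Among 23 measured members, 10 were higher and 9 lower, against 23.4% and 23.8% of all genes. Arc, the synaptic protein that calcium entry induces, had 1442, 1605 and 1320 normalized counts in DMSO, 847, 808 and 986 at 0.2 µM and 535, 554 and 527 at 2.0 µM (-1.43 ± 0.17, adjusted p = 2.4e-05). Fosb went from 982, 1192 and 811 to 426, 405 and 448 (-1.20 ± 0.22, adjusted p = 7.5e-04), and Nr4a1, an orphan nuclear receptor that firing induces, from 1849, 2184 and 1566 to 1136, 1248 and 970 (-0.73 ± 0.20, adjusted p = 0.0096). All 3 were below every DMSO value at 2.0 µM. By contrast, Jun went from 3251, 3307 and 3230 to 8056, 8210 and 8241 (1.32 ± 0.05, adjusted p = 8.1e-09), Fosl1 from 128, 140 and 138 to 496, 475 and 523 (1.87 ± 0.12, adjusted p = 2.3e-07) and Ier2 from 521, 539 and 523 to 1378, 1743 and 1246 (1.45 ± 0.15, adjusted p = 8.9e-06). Jun, Fosl1 and Fosl2 encode subunits of AP-1, as does Fosb, and all values of the first 3 at 2.0 µM lay above DMSO. Fos had 1723, 1828 and 1441 in DMSO and 1579, 1367 and 1616 at 2.0 µM (adjusted p = 0.54) and Npas4 539, 656 and 347 in DMSO and 260, 265 and 309 at 2.0 µM (adjusted p = 0.052), and neither passed, although Npas4 was lower without DMSO replicate 3 (-1.10, adjusted p = 0.025) and without the 3 libraries that stood apart (-0.81, adjusted p = 0.040). Of 18 MAP kinase phosphatases and feedback inhibitors, 5 were higher and 7 lower, against 23.4% and 23.8% of all genes. Dusp10 (1.40 ± 0.17), which acts on stress kinases, was above DMSO. Dusp5 (-0.67 ± 0.14) and Spry4 (-0.51 ± 0.09), which restrain ERK signalling, were below it.

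Neuropeptides and secreted trophic factors were lower in 17 of 22 measured members and higher in none, with a median of -0.98. Of all genes, 23.8% were lower and 23.4% higher. Sst, somatostatin, had 18916, 19282 and 23034 normalized counts in DMSO, 12121, 10252 and 9323 at 0.2 µM and 7196, 9169 and 6721 at 2.0 µM (-1.41 ± 0.16, adjusted p = 1.2e-05). Vgf, a secreted protein that activity and BDNF induce, went from 22384, 23325 and 25364 to 11064, 13905 and 10308 (-1.02 ± 0.10, adjusted p = 5.6e-06). Tac1, the substance P precursor, went from 303, 283 and 341 to 110, 144 and 110 (-1.35 ± 0.13, adjusted p = 3.9e-06), and Vip (-2.27 ± 0.24) and Cartpt (-1.60 ± 0.26) fell as well. Scg2 (-0.82 ± 0.06) and Chgb (-0.76 ± 0.08), proteins of the secretory granule, were lower too, whereas Tac3 (adjusted p = 0.81) and Ntf3 (adjusted p = 0.98) did not pass. At 0.2 µM, 15 members were lower and 1 was higher against the same DMSO libraries, with 10.6% and 7.70% of all genes. Compared directly, 13 members were lower at 2.0 µM than at 0.2 µM and none was higher, against 15.7% and 18.0% of all genes.

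Potassium channel genes were lower in 26 of 43 measured members, with 1 higher and a median of -0.75. Of all genes, 23.8% were lower and 23.4% higher. Kcnc2, a channel of fast-spiking interneurons, had 629, 651 and 604 normalized counts in DMSO, 453, 467 and 411 at 0.2 µM and 216, 223 and 239 at 2.0 µM (-1.47 ± 0.10, adjusted p = 2.2e-07). Kcnip1, a calcium-binding partner of A-type channels, went from 782, 833 and 778 to 425, 431 and 418 (-0.91 ± 0.07, adjusted p = 1.0e-06). Each was lower in all 3 libraries at 2.0 µM than in any DMSO library. Kcnma1, the large calcium-activated channel, had a log2 change of -0.01 and did not pass. The member that rose was Kcnn3 (1.13 ± 0.08), a small-conductance calcium-activated channel, whose relatives Kcnn1 (-0.85 ± 0.16) and Kcnn2 (-0.75 ± 0.09) fell. At 0.2 µM, 2 members were higher and 7 lower, where 7.70% of all genes were higher and 10.6% lower. Compared directly, 28 members were lower at 2.0 µM than at 0.2 µM and 1 was higher, against 15.7% and 18.0% of all genes.

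**Figure D4:**
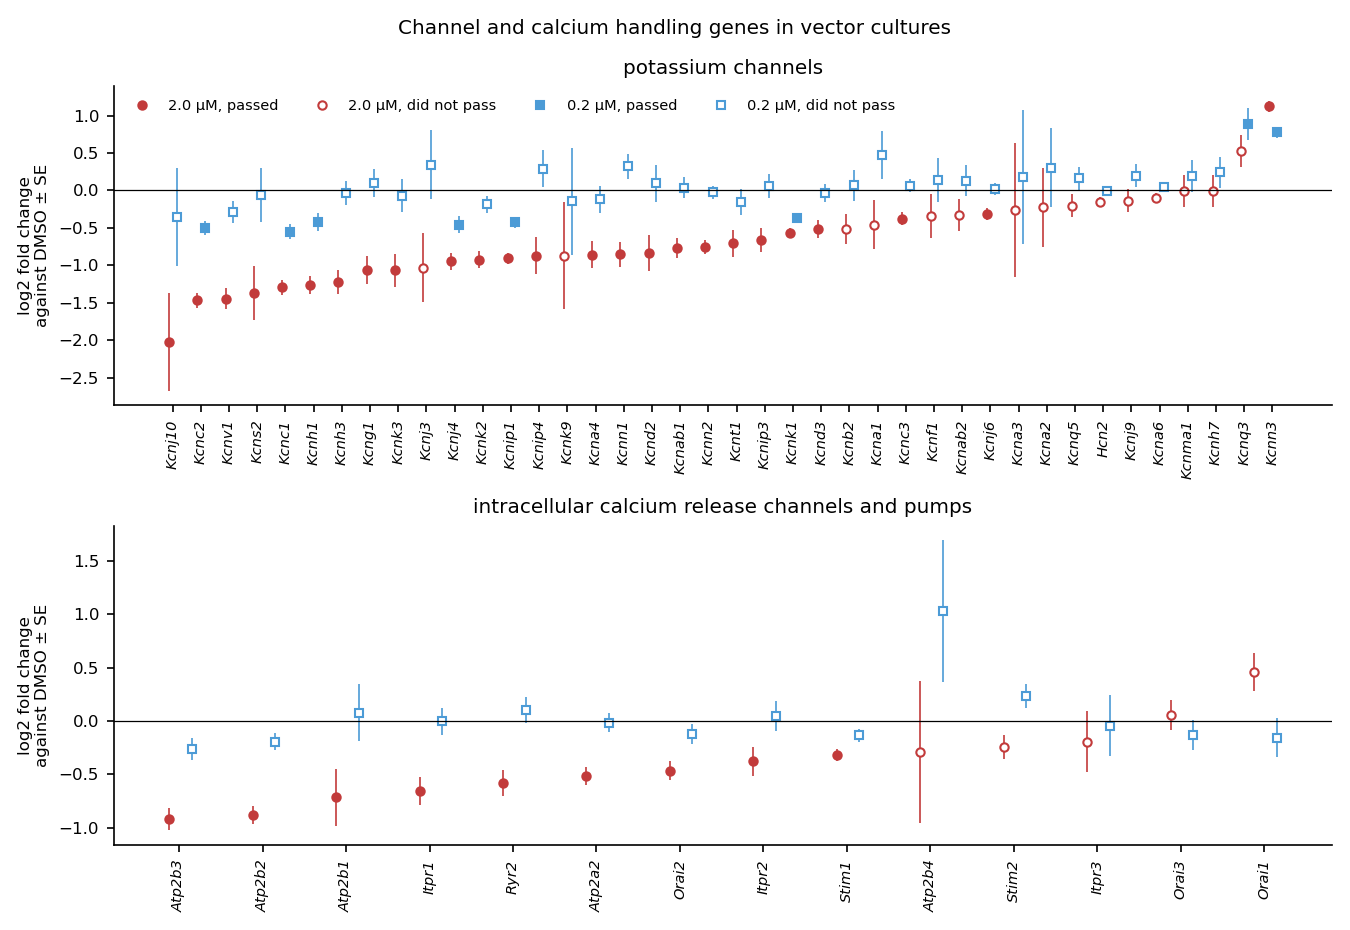
Log2 fold change ± SE (y) of measured potassium channel genes and, in the lower panel, intracellular calcium release channels and pumps (x, some members left out), with circles for 2.0 µM and squares for 0.2 µM FK506 against the same DMSO libraries and filled symbols for an adjusted p under the threshold. Filled circles lie below 0 except for Kcnn3, and most squares lie nearer 0.

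Voltage-gated sodium and calcium channels were lower in 13 of 26 members and higher in 2, against 23.8% and 23.4% of all genes. Cacna1a, the P/Q channel of nerve terminals, went from 1509, 1629 and 1501 to 877, 798 and 828 (-0.89 ± 0.09, adjusted p = 4.3e-06), and Cacng8 (-1.36 ± 0.11) and Cacng2 (-0.79 ± 0.13), auxiliary subunits of AMPA receptors, fell. Among 23 glutamate receptor genes, 12 were lower and 1 higher. Gria3, an AMPA receptor subunit, went from 1228, 1386 and 1045 to 594, 523 and 618 (-1.07 ± 0.15, adjusted p = 9.8e-05), while Grin2b, the NMDA receptor subunit typical of young neurons, was the one that rose, from 169, 140 and 185 to 272, 268 and 248 (0.68 ± 0.11, adjusted p = 3.1e-04). Of 17 GABA and glycine receptor genes, 6 were lower and Gabrb1 (0.87 ± 0.14) was higher.

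Many genes of the synapse were lower on both sides of the cleft. Presynaptic genes fell in 15 of 33 members and rose in 2, and postsynaptic genes fell in 14 of 27 and rose in none (19 and 4 without the 3 libraries that stood apart). Of all genes, 23.8% were lower and 23.4% higher. Snap25, a SNARE protein of vesicle fusion, had 10967, 13529 and 9808 normalized counts in DMSO and 5253, 4247 and 5090 at 2.0 µM (-1.23 ± 0.18, adjusted p = 1.3e-04). Syn3 (0.72 ± 0.14) and Syt4 (0.40 ± 0.06) were the presynaptic genes that rose. Synpo, synaptopodin, which organizes the spine apparatus, went from 1004, 900 and 814 to 400, 318 and 459 (-1.22 ± 0.26, adjusted p = 0.0018), and the scaffold genes Dlgap3 (-1.24 ± 0.10) and Homer2 (-1.01 ± 0.19) fell. Camk2a, the kinase of synaptic potentiation, was at 1635, 1255 and 1237 in DMSO and 974, 554 and 1024 at 2.0 µM and did not pass (adjusted p = 0.19). It was lower without the 3 libraries that stood apart (-0.45, adjusted p = 0.0087). Cytoskeletal genes were lower in 19 of 27 members, led by Nefh (-1.71 ± 0.10), the heavy neurofilament, and higher in 2, Stmn4 and Tubb6 (0.60 ± 0.13).

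Markers of both labelled cell types were present and lower at 2.0 µM. In bulk libraries fewer cells of a type and less RNA per cell cannot be told apart. Of 16 markers of glutamatergic neurons, 8 were lower and 1, Rorb (1.81 ± 0.25), was higher, and their summed normalized counts were 21655 to 22947 in DMSO and 13636 to 15045 at 2.0 µM. Slc17a7, the main vesicular glutamate transporter of cortex, went from 8569, 7514 and 7752 to 5143, 4230 and 5151 (-0.72 ± 0.17, adjusted p = 0.0032), while Slc17a6 had 184, 199 and 201 in DMSO and 208, 168 and 196 at 2.0 µM (adjusted p = 0.82). Markers of GABAergic interneurons, which the labels do not name, were also present, 11 of 15 lower and none higher, with summed counts of 41769 to 45039 in DMSO and 17882 to 19430 at 2.0 µM. Gad2, which makes GABA, went from 505, 420 and 406 to 220, 155 and 230 (-1.15 ± 0.24, adjusted p = 0.0017). Dlx1 (adjusted p = 0.42) and Dlx2 (adjusted p = 0.92), transcription factors of the interneuron lineage, did not pass. Of 19 pan-neuronal markers, 12 were lower and none higher, and their sum was 110803 to 116677 in DMSO and 81401 to 86195 at 2.0 µM. Of all genes, 23.8% were lower and 23.4% higher. A lower sum was not particular to markers of cell types. The sum of 12 housekeeping genes, 6 of them lower and 4 higher, was 200986 to 208684 in DMSO and 152176 to 168562 at 2.0 µM. Neuronal and interneuron markers thus moved with the channel, peptide and synapse genes above, and their part in those results was not tested.

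Astrocyte markers were lower in 16 of 20 members and higher in 2, with a summed count of 144761 to 147623 in DMSO and 72072 to 72637 at 2.0 µM. Gja1, the gap junction protein connexin 43, had 2973, 3149 and 2876 normalized counts in DMSO, 2545, 2719 and 2568 at 0.2 µM and 1266, 1080 and 1337 at 2.0 µM (-1.29 ± 0.11, adjusted p = 1.3e-06). Aqp4, the water channel of astrocyte endfeet, went from 4605, 4593 and 4087 to 1948, 1536 and 2084 (-1.26 ± 0.16, adjusted p = 3.9e-05), and Aldh1l1, a folate enzyme, from 289, 216 and 251 to 137, 162 and 108 (-0.89 ± 0.15, adjusted p = 3.3e-04). All 3 were without overlap. Slc1a2, the glutamate transporter GLT-1, moved the other way, from 106, 151 and 124 to 251, 255 and 273 (1.04 ± 0.14, adjusted p = 6.2e-05), and so did Sox9 (0.37 ± 0.10), a transcription factor of astrocytes. Of 23 genes of reactive astrocytes, 4 were higher and 8 lower, against 23.4% and 23.8% of all genes. Vim (-0.91 ± 0.12), S100a10 (-0.93 ± 0.18) and Aspg (-2.11 ± 0.37) fell, and Tgm1 (1.40 ± 0.28), Nes (0.77 ± 0.07) and Cxcl10 rose.

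Markers of other cell types were measured in part, and a gene that was not measured may still be expressed. Only 3 of 18 microglial markers have a row in the table used here. Of these, 2 were higher, among them Cd68 (1.92 ± 0.15), a lysosomal protein of phagocytes, and Laptm5 (-1.10 ± 0.29) was lower, with a sum of 2407 to 2519 in DMSO and 3411 to 3697 at 2.0 µM. Of 12 fibroblast and meningeal markers, 6 were lower, among them Lum (-2.38 ± 0.31), Postn (-1.88 ± 0.38) and Dcn (-1.10 ± 0.12), and Tagln alone was higher. Of 11 oligodendrocyte markers, 2 were higher and 3 lower, with Olig1 at -1.51 ± 0.07 and Mag at 1.43 ± 0.27. Beside these counts, 23.4% of all genes were higher and 23.8% lower.

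Many genes of energy metabolism were lower. Glycolysis genes fell in 15 of 20 members and rose in 3, with a median of -0.52. At 2.0 µM, 23.8% of all genes were lower and 23.4% higher. Ldha, lactate dehydrogenase A, went from 21954, 23263 and 22733 to 10928, 12255 and 10472 (-1.02 ± 0.09, adjusted p = 2.1e-06), Aldoc, the aldolase of astrocytes, from 11525, 11509 and 12741 to 6820, 7387 and 6724 (-0.77 ± 0.09), and Slc16a7, a lactate carrier of neurons, from 51.9, 42.8 and 39.6 to 20.4, 10.3 and 28.3 (-1.24 ± 0.32). Hk2, the inducible hexokinase, had low values of 13.4, 6.14 and 4.87 in DMSO and 41.0, 28.3 and 44.5 at 2.0 µM (2.18 ± 0.38, adjusted p = 4.7e-04). It rose together with the glucose carrier Slc2a1 (0.86 ± 0.05) and the lactate exporter Slc16a3 (1.01 ± 0.24). Nuclear genes of oxidative phosphorylation were lower in 15 of 25 members and higher in none, and lower in all 25 without the 3 libraries that stood apart. The summed neuronal and astrocyte markers given above were lower in the same libraries, and their part in these values was not tested. At 0.2 µM, 13 genes of glycolysis and 12 of oxidative phosphorylation were lower against the same DMSO libraries, with none higher. Of all genes, 10.6% were lower and 7.70% higher at that dose. Compared directly, 5 glycolysis genes were lower at 2.0 µM than at 0.2 µM and 2 higher, and 2 genes of oxidative phosphorylation were lower and none higher, where 15.7% of all genes were lower and 18.0% higher.

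Cholesterol genes were higher in 8 of 23 members and lower in 6, where 23.4% of all genes were higher and 23.8% lower. Insig1, which holds sterol regulation in check, had 2389, 2509 and 2424 normalized counts in DMSO, 2158, 2129 and 2259 at 0.2 µM and 4545, 4216 and 4445 at 2.0 µM (0.85 ± 0.08, adjusted p = 3.1e-06), and Dhcr7 (0.72 ± 0.07) also rose. Stard4, a sterol carrier, went from 101, 95.8 and 82.3 to 52.6, 32.9 and 49.6 (-1.06 ± 0.26). Hmgcs1 (adjusted p = 0.081) and Sqle (adjusted p = 0.45), 2 further enzymes that sterols regulate, did not pass, but without the 3 libraries that stood apart the former was lower (-0.15, adjusted p = 0.0076) and the latter higher (0.13, adjusted p = 0.027). Pltp (1.43 ± 0.12), a phospholipid transfer protein, and Abca1 (0.73 ± 0.19), the cholesterol exporter, rose, while Apoc1 (-1.48 ± 0.20) and Srebf1 (-0.43 ± 0.07) fell.

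Several antigen presentation genes were higher. Of 20 interferon-stimulated genes, 10 were higher and 4 lower, against 23.4% and 23.8% of all genes. Those with large rises included Tap1 (2.06 ± 0.11), the peptide transporter of MHC class I, and Psmb8 (1.53 ± 0.21) and Psmb9 (1.12 ± 0.18), subunits of the immunoproteasome. Tap1 had 332, 264 and 280 normalized counts in DMSO and 1253, 1292 and 1112 at 2.0 µM (adjusted p = 6.5e-08), and Psmb8 143, 126 and 146 in DMSO and 379, 531 and 324 at 2.0 µM (adjusted p = 6.0e-05). RT1-A1, a rat MHC class I gene whose reads can be shared with other class I genes, went from 351, 434 and 466 to 633, 807 and 575 (0.68 ± 0.17). Ifitm3 (-1.06 ± 0.25) fell, and Mx1 did not pass (adjusted p = 0.68). The chemokines Cxcl10 (2.00 ± 0.43) and Cxcl1 (1.73 ± 0.25) rose, and Cx3cl1 (-0.82 ± 0.05), which neurons make, fell. The sum of the 3 microglial markers given above was higher in the same libraries, with 2 of them higher and Laptm5 lower. Their part in these values was not tested.

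**Figure D5:**
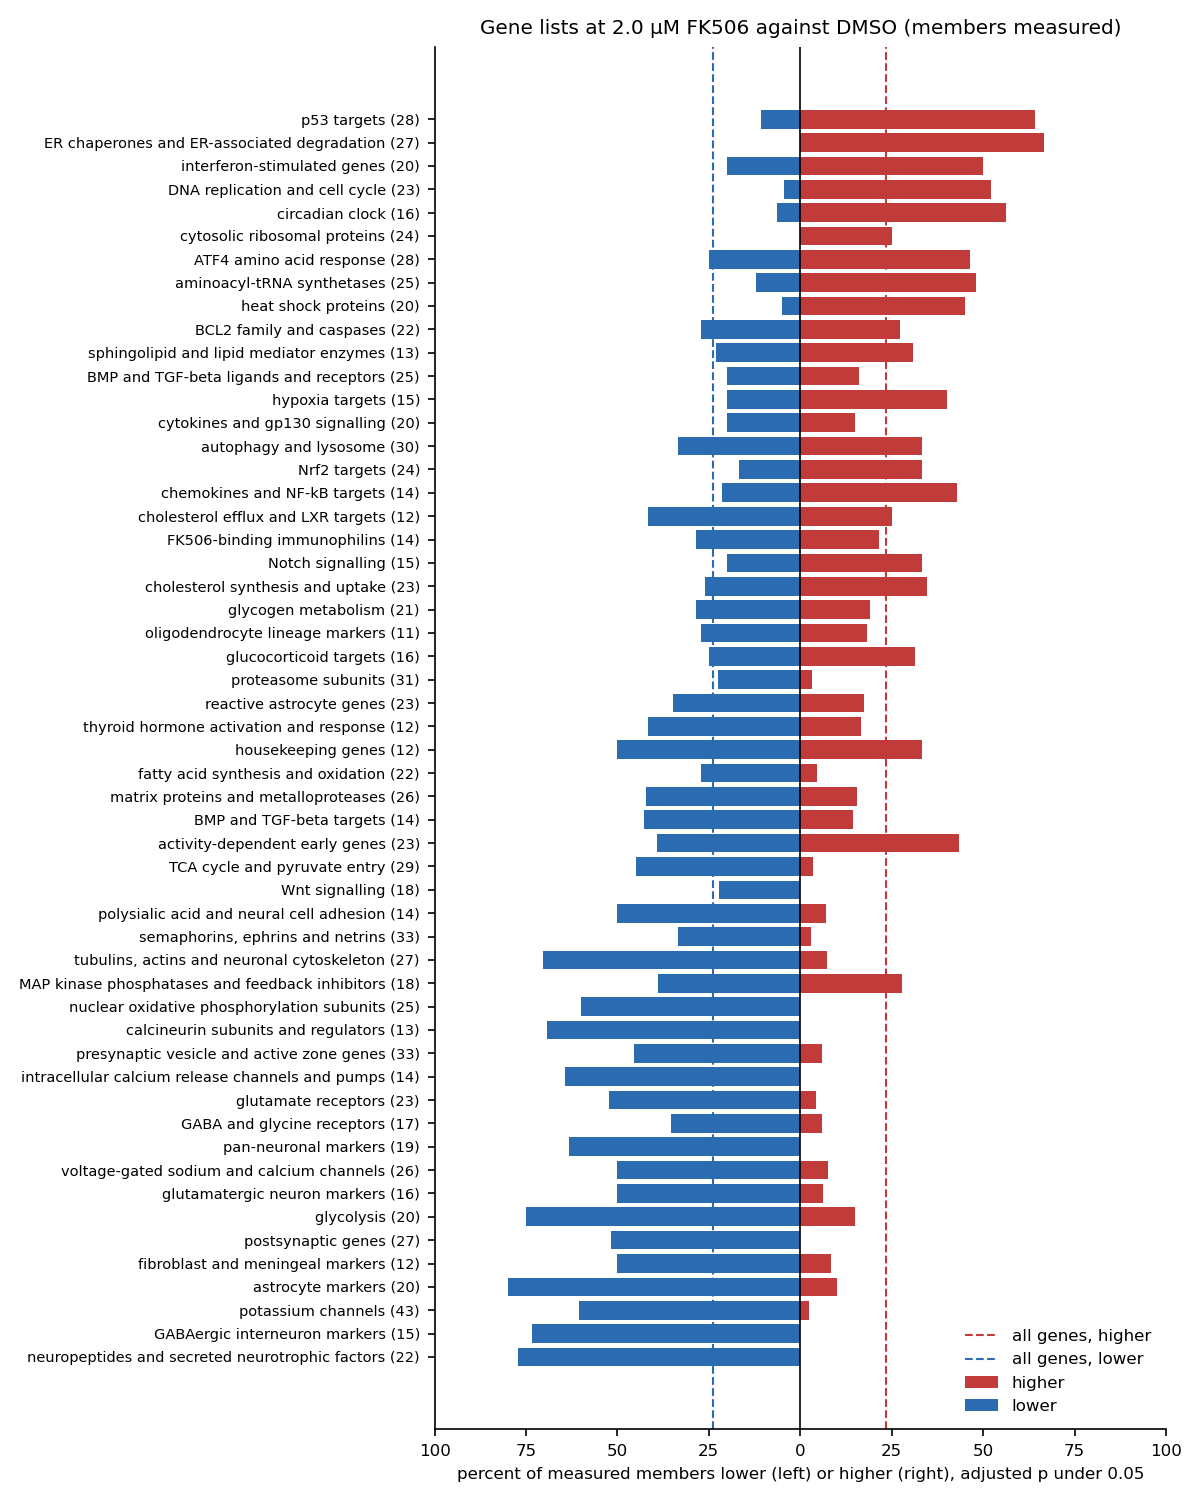
Percent of measured members of each gene list (y) that passed as higher (right) or lower (left) at 2.0 µM FK506 against DMSO, ordered by the median log2 fold change, with dashed lines at the share of all genes (23.4% higher, 23.8% lower). The p53 and ER lists lie at one end and neuropeptides, GABAergic markers and potassium channels at the other.

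The 2 doses were compared directly in empty-vector cultures, and 3785 genes (33.7%) differed, 2021 (18.0%) higher and 1764 (15.7%) lower at 2.0 µM. The largest rises from 0.2 to 2.0 µM, again among genes with a mean of at least 50 in the higher group and no overlap, were Gdf15 (6.42 ± 0.17), Cdkn1a (3.30 ± 0.13), Dio2 (2.84 ± 0.20), Tgfbr2 (2.74 ± 0.37), Gtse1 (2.51 ± 0.17) and Cryab (2.40 ± 0.19). Gdf15 was at 49.6, 42.2 and 50.1 at 0.2 µM, close to its DMSO values, whereas Cdkn1a and Dio2 were already above DMSO there. The largest falls were Sla (-1.93 ± 0.25), Crhbp (-1.58 ± 0.18), Pdzd2 (-1.58 ± 0.48), Hdac9 (-1.56 ± 0.34), Dgkg (-1.54 ± 0.31) and Cckbr (-1.52 ± 0.19). Sla, an adaptor protein, had 147, 104 and 130 in DMSO, 126, 179 and 173 at 0.2 µM and 51.7, 28.4 and 45.6 at 2.0 µM (adjusted p = 1.3e-04 between doses). Cckbr, a receptor for the peptide cholecystokinin, had 1092, 1225 and 1209 in DMSO, 851, 863 and 801 at 0.2 µM and 300, 379 and 216 at 2.0 µM (adjusted p = 1.0e-04).

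Some genes passed in opposite directions at the 2 doses, and those named here had the largest differences between doses under the ranking rule. The number of such genes in all was not counted. Fosl2, a subunit of AP-1, had 75.0, 59.1 and 62.7 normalized counts in DMSO, 29.8, 43.2 and 46.7 at 0.2 µM and 147, 143 and 167 at 2.0 µM, so that it fell at 0.2 µM (-0.72 ± 0.18, adjusted p = 0.015) and rose at 2.0 µM (1.21 ± 0.18, adjusted p = 1.2e-04). Hmox1, heme oxygenase, had 2198, 2024 and 2560 in DMSO, 1483, 1238 and 1528 at 0.2 µM and 4629, 5351 and 4136 at 2.0 µM. Csrnp1 (-0.51 ± 0.13 at 0.2 µM and 0.62 ± 0.13 at 2.0 µM), Tubb6 (-0.67 ± 0.13 and 0.60 ± 0.13) and Msmo1 (-0.83 ± 0.06 and 0.25 ± 0.06) had the same pattern. The reverse pattern was seen in Olig2, a transcription factor of the oligodendrocyte lineage, with 431, 419 and 401 in DMSO, 587, 616 and 542 at 0.2 µM and 335, 300 and 326 at 2.0 µM (0.48 ± 0.08 and -0.38 ± 0.08). Pnp (0.30 ± 0.09 and -0.55 ± 0.09), Lrtm2 (0.34 ± 0.08 and -0.40 ± 0.08), Rhbdl3 (0.33 ± 0.07 and -0.33 ± 0.07) and Extl1 (0.23 ± 0.06 and -0.24 ± 0.06) shared it. Replicate 1 at 0.2 µM was the library farthest from its group median in 62.7% of genes, and its part in these values was not tested.

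The effect of 2.0 µM in empty-vector cultures was also set against its effect in cultures carrying A53T α-synuclein, by the interaction term of the same fit. The term passed in 1641 genes (14.6%), 916 (8.14%) with a higher and 725 (6.45%) with a lower effect in A53T cultures. Between 2.0 µM and DMSO in A53T cultures themselves, 37.6% of genes passed, 19.7% higher and 17.9% lower. Gdf15, which rose in empty-vector cultures, had 380 and 394 normalized counts in the 2 A53T libraries in DMSO and 244, 189 and 275 in the 3 at 2.0 µM (interaction -6.83 ± 0.26, adjusted p = 3.0e-08). In A53T cultures Tagln had 1650 and 1559 in DMSO and 1258, 817 and 1177 at 2.0 µM (-3.41 ± 0.25, adjusted p = 8.3e-06), and Fosl2 74.6 and 70.2 in DMSO and 25.9, 22.0 and 23.4 at 2.0 µM (-2.78 ± 0.26, adjusted p = 8.1e-05). These 3 genes rose at 2.0 µM in empty-vector cultures and fell in A53T cultures. Of the genes that fell in empty-vector cultures, Crhbp, a binding protein for the stress peptide CRH, had 88.2 and 63.9 in A53T DMSO and 48.8, 45.0 and 41.4 at 2.0 µM (2.72 ± 0.27, adjusted p = 1.1e-04). In DMSO itself Gdf15 and Tagln were higher, and Crhbp lower, in the A53T libraries than in the empty-vector libraries. Timp4, an inhibitor of metalloproteases, had 217 and 187 in A53T DMSO and 427, 421 and 364 at 2.0 µM (2.69 ± 0.20, adjusted p = 8.3e-06). The count of genes that pass this term depends on single libraries, running from 632 to 2615 as each library is left out in turn, with 387 genes when the replicate number was a block and 4254 without the 3 libraries that stood apart.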

How the data were processed

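Messenger RNA was measured in 17 libraries, of which 6 make the main comparison. Per the labels' protocols, RNA was extracted with RNeasy columns and libraries were made from 150 ng with a TruSeq stranded kit. Per the submitters' processing notes, FastQC, TopHat and HTSeq were used with the rat build rn6. Versions, strand setting and normalization method are not given in the sources used here, and the authors deposited 1 table of normalized counts per gene, a signal that is no longer whole reads. Low values did not fall on steps of whole reads, so no count test was run and the depth of reads behind a value is unknown.

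Values were tested as log2(value + 1) with limma 3.58.1 and statmod 1.5.0 in R 4.3.3, with a trend and Benjamini-Hochberg adjustment over 11247 genes with a mean of at least 1, at an adjusted p of 0.05. One fit held all 6 groups, with 3 A53T libraries at 0.2 µM averaged to 1 sample because they agree within sampling noise (0.995 to 1.05 times), which gave 15 samples and 9 residual degrees of freedom. The second A53T library in DMSO was used without a number, because the number in its column differs from that in its title. Same-numbered libraries did not all deviate together (correlations of 0.22, 0.16 and -0.21 between DMSO and 2.0 µM), so no pairing was used. The script was tested on simulated data. The libraries, gene lists and tests were chosen with earlier results of these data known, so no list is independent support for its direction. Named genes are the calcineurin, NFAT and FKBP lists, the largest changes under fixed ranks (12 rises, 12 falls, 5 gains and 5 losses in counts, and the like for dose and genotype) and up to 5 members per list with the smallest p. Other members were named for their role after their values were seen. Promoters were matched by symbol to RefSeq on GRCr8, and 10458 of 11247 labels were current symbols. Another pseudocount, a filter on low values, other scalings, other sets of libraries, a replicate block and leaving out each library were tried.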

Additional observations from a re-analysis of the deposited data

Results flagged for a closer look

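In 10 genes the effect of 2.0 µM FK506 differed between A53T and empty-vector cultures by the interaction term of limma, and these had the largest differences by the ranking rule. All values are log2, A53T effect minus empty-vector effect. The effect was higher in A53T cultures for Cort, a cortistatin precursor of interneurons (2.94), Trim54 (2.72), Crhbp (2.72), Timp4 (2.69) and Slco1c1 (2.52). It was lower for Gdf15 (-6.83), Tagln (-3.41), Zbtb20 (-3.02), Ncoa2 (-2.88), a nuclear receptor coactivator, and Fosl2 (-2.78). In empty-vector cultures Cort had 51.5, 61.1 and 59.6 normalized counts in DMSO and 19.5, 22.5 and 16.2 at 2.0 µM. In A53T cultures it had 5.34 and 8.58 in DMSO and 25.4, 26.0 and 11.7 at 2.0 µM, so that its values moved in opposite directions. Slco1c1 had 267, 301 and 269 in empty-vector DMSO and 45.8, 61.0 and 44.5 at 2.0 µM, and its A53T values were 156 and 172 in DMSO and 163, 208 and 149 at 2.0 µM. Zbtb20 had 13.4, 6.15 and 10.7 in empty-vector DMSO and 84.8, 71.1 and 107 at 2.0 µM, and its A53T values were 18.1 and 14.99 in DMSO and 14.4, 18.0 and 18.1 at 2.0 µM. For Slco1c1 and Zbtb20 the A53T libraries at 2.0 µM overlapped the A53T libraries in DMSO. The call of Trim54 was lost without either A53T library in DMSO (adjusted p = 0.059 and 0.054). Ncoa2 lost its call on leaving out any of 8 libraries, with an adjusted p of up to 0.13.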

How the results depend on the processing

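The count of genes that passed between 2.0 µM and DMSO stayed between 4523 and 6885 under every alternative run, and that between doses between 2670 and 5402. The interaction count of 1641 moved to 387 with a replicate block, to 4254 without the 3 libraries that stand apart, and to between 632 and 2615 as each library was left out, and the cause was not tested. With the replicate block the count for 2.0 µM against DMSO was 4842 and that between doses 3135. Deviations of same-numbered libraries were not all positively correlated, so the numbers are not treated as pairs. Of 414 named genes, none reversed under any setting, and 0 to 11 lost their call under each setting. Among the lists, ribosomal proteins moved most, from 6 members that passed to 20 after quantile normalization, 13 with only the groups compared in the fit, 15 without the 3 libraries and as few as 2 when 1 library was left out. Proteasome subunits moved from 8 to 13 after quantile normalization, to 12 with only the groups compared, to 19 without the 3 libraries and to as few as 3 when 1 library was left out. The test on recovered whole reads was not run, since the deposited values do not give whole reads. With 3 libraries a group and unknown read depth, small changes of genes with low values may not be detectable.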

Other observations

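Several further gene groups had values at 2.0 µM that the text above does not describe. Circadian clock genes were higher in 9 of 16 measured members and lower in 1. Nr1d1, the repressor REV-ERBα, had 1480, 1453 and 1590 normalized counts in the 3 DMSO libraries and 2350, 2412 and 2292 at 2.0 µM (log2 fold change 0.64 ± 0.06, adjusted p = 3.9e-06 with limma), and Cry2 (0.52 ± 0.04), Per1 (0.69 ± 0.12) and Nfil3 (0.83 ± 0.09) also rose. Npas2, a partner of BMAL1, fell from 562, 506 and 500 to 195, 185 and 176 (-1.49 ± 0.11), and Arntl, which encodes BMAL1, did not pass (adjusted p = 0.43). Autophagy and lysosome genes were higher in 10 of 30 members and lower in 10, against 23.4% and 23.8% of all genes. Tfeb, the master transcription factor of lysosomal genes, went from 109, 130 and 158 to 234, 277 and 244 (0.93 ± 0.15, adjusted p = 2.2e-04). Lamp1 (-0.54 ± 0.07), Becn1 (-0.58 ± 0.05) and Mcoln1 (-0.57 ± 0.07) fell.

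Of 26 matrix proteins and metalloproteases, 4 were higher and 11 lower, with Mmp12, a macrophage elastase, at 15.6, 10.2 and 7.19 in DMSO and 69.3, 78.6 and 67.8 at 2.0 µM (2.66 ± 0.29, adjusted p = 9.4e-06) and Thbs4, a thrombospondin that promotes synapse formation, at 100, 118 and 109 in DMSO and 26.3, 35.1 and 29.4 at 2.0 µM (-1.82 ± 0.18, adjusted p = 4.3e-06). St8sia2, which builds polysialic acid on the adhesion protein NCAM, rose from 5.67, 5.13 and 7.19 to 32.2, 38.4 and 37.4 (2.41 ± 0.25, adjusted p = 8.0e-06), the one member of a list of 14 polysialic acid and adhesion genes to do so, with 7 lower, but without the 3 libraries that stood apart 5 were higher and 7 lower. In the Notch list, 5 of 15 members were higher and 3 lower, with Hes1, the main target of the pathway, at 588, 677 and 636 in DMSO and 282, 317 and 291 at 2.0 µM (-1.09 ± 0.11, adjusted p = 6.5e-06). When only genes with a mean of at least 50 were tested, 2 were higher and 3 lower. Of 31 proteasome subunits, 1 was higher and 7 lower, and of 24 cytosolic ribosomal proteins, 6 were higher and none was lower. Beside the counts of this paragraph, 23.4% of all genes were higher and 23.8% lower. The 7 proteasome genes that were lower and the 6 ribosomal genes that were higher lie near those shares. The ribosomal count was 2 without DMSO replicate 1 or without replicate 2 at 2.0 µM, and the proteasome count was 3 without DMSO replicate 2.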
